A study of Mus musculus with 6 samples.

Results

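The genes of the mitochondrial ribosomal proteins were examined in mouse tumor organoids (MTOs), which are three-dimensional cultures of tumor epithelium. They were taken as the protein-coding mouse genes whose symbols start with Mrpl or Mrps followed by a digit, the names of large subunit and small subunit proteins. The annotation held 78 such genes, 49 of the large and 29 of the small subunit, of which 77 were among the 20756 genes of the expression table. The remaining gene, Mrpl53, was not analysed here. The 6 libraries came from C57BL/6 MTOs, 3 targeted with a CRISPR guide to Prkci (sgPrkci) and 3 with a guide to Prkcz (sgPrkcz). Both groups were kept without treatment in advanced DMEM/F12 with HEPES, Glutamax, B-27 and EGF. Prkci encodes the atypical protein kinase PKCλ/ι and Prkcz encodes the related kinase PKCζ, and the comparison asks how targeting 1 kinase gene differs from targeting the other in tumor cells. MTOs that received a control guide were not analysed here, and every direction is sgPrkci relative to sgPrkcz. Whether a line was grown from 1 clone, and which driver mutations the MTOs carry, is not stated in the labels or methods. The methods call the samples biological replicates without saying whether they were separate lines or separate cultures of a line. The p-values therefore set a group difference against the spread between these libraries only, and cannot tell whether the difference would hold in other lines.

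Mitochondria keep their own ribosomes, which make the few proteins encoded by mitochondrial DNA, all of them parts of the respiratory chain or of ATP synthase. The 2 ribosomal RNAs, 12S and 16S, are encoded in the mitochondrion by mt-Rnr1 and mt-Rnr2, whereas every protein of the ribosome is encoded in the nucleus, made in the cytosol and imported. Some of these proteins descend from bacterial ribosomal proteins, and others are found only in mitochondrial ribosomes. The nuclear genes of this ribosome are active in nearly all cell types, since most cells depend on respiration.

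The libraries were 3' tag libraries, in which each transcript gives reads from its last part whatever its length, and values are CPM, that is reads scaled to 1000000 per library over the genes of the table. The recovered depth was 2141125 to 2815760 reads in sgPrkci libraries and 1593480 to 2696430 reads in sgPrkcz libraries, and 1 read was worth between 0.355 and 0.628 CPM. Values per library follow the order of the replicate numbers in the labels, 10, 11 and 12 for sgPrkci and 13, 14 and 15 for sgPrkcz. Across genes, Pearson's r lay between 0.976 and 0.985 for pairs of libraries within a group and reached at most 0.934 for pairs between the groups, as a description. The tags of the targeted genes do not check the labels, since a guide can disrupt a gene and leave the end of its transcript in place. Prkci measured 53.9, 56.5 and 46.9 CPM in the sgPrkci MTOs, against 72.3, 34.5 and 59.7 CPM in sgPrkcz libraries. Prkcz measured 2.26, 3.27 and 4.62 CPM in the sgPrkci MTOs, against 2.97, 5.02 and 2.93 CPM in sgPrkcz libraries. Groups were taken from the labels, and 1 place in the study's own material has the names of these libraries swapped, in which case all directions below would turn round. Of 6 epithelial markers all were present in every library, with summed levels of 3569 to 3991 CPM in sgPrkci and 4392 to 4685 CPM in sgPrkcz libraries. The leukocyte, fibroblast and endothelial markers that the table lists summed to at most 1.51, 1.89 and 0.742 CPM in any library, and Cd3e, Cd79a and Itgam were not analysed here.

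Transcripts of the mitochondrial ribosomal proteins were lower in the sgPrkci MTOs for 37 of the 73 members that could be tested and higher for none. Testing used limma on log2(CPM + 1) over the 9558 genes that reached 5 CPM in 3 or more libraries, with Benjamini-Hochberg adjustment over all of them and a threshold of 0.05. Of all genes tested, 26.5% were lower and 14.4% were higher. The median log2 fold change of the members was -0.42, beside a median of -0.11 over all genes tested. A log2 fold change below 0 was seen for 65 members and one above 0 for 8, and 62 members lay below the median of all genes. Every sgPrkci library was below every sgPrkcz library for 45 of the 73 members (61.6%), beside 31.8% of all genes tested. The opposite order held for 3 of the 73, Mrpl33, Mrpl14 and Mrpl41, beside 1737 of the 9558 genes tested. At an unadjusted p under 0.05, limma placed 2 members above 0, Mrpl33 and Mrpl14. On the recovered reads edgeR called 31 members lower (42.5%) and 2 higher, beside 20.2% of all genes lower and 2011 genes higher. DESeq2 called 20 members lower (27.4%) and 1 higher, beside 14.1% of all genes lower and 1450 genes higher. In bulk libraries, fewer cells of a type and less RNA per cell cannot be told apart.

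**Figure D1:**
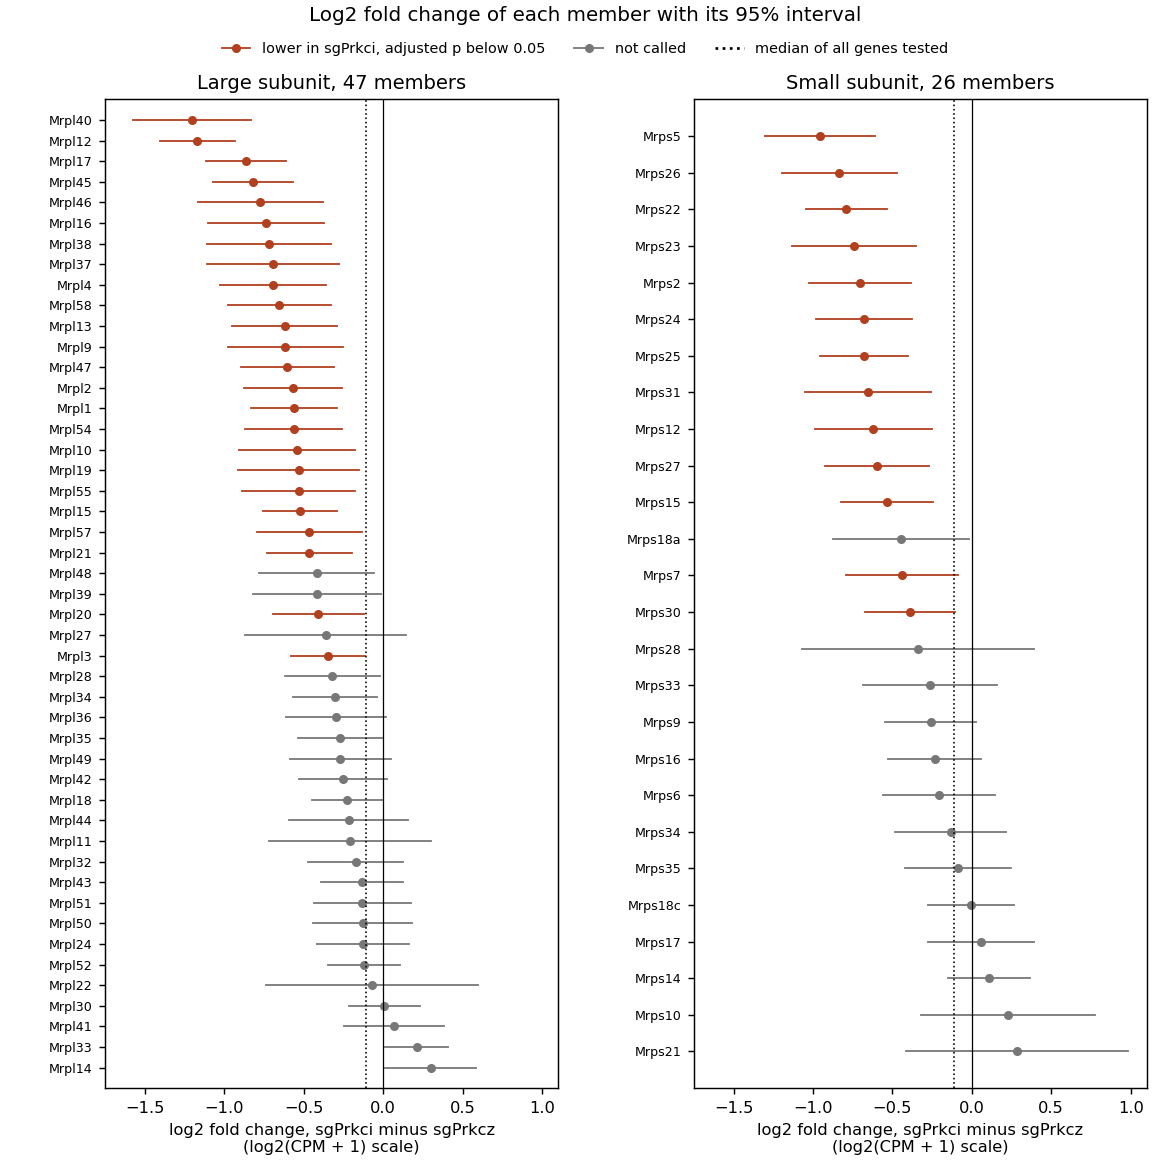
Log2 fold change (sgPrkci minus sgPrkcz, on the log2(CPM + 1) scale) of the 47 large subunit members and the 26 small subunit members that were tested, each point with its 95% interval from limma before adjustment. The 24 large and 13 small subunit members called lower (orange) lie left of 0, no member was called higher, and most uncalled members (grey) also lie left of the dotted line at the median of all genes, -0.11.

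The large and the small subunit gave like counts. Of the large subunit members, 24 of 47 were lower (51.1%), with a median log2 fold change of -0.42, and of the small subunit members 13 of 26 were lower (50%), with a median of -0.41. Of all genes tested, the share of lower genes was 26.5%. Summed over the members in the table, the large subunit held 1771, 1805 and 1759 CPM in the sgPrkci libraries, against 2335, 2395 and 2224 CPM in the sgPrkcz libraries. The small subunit held 780.4, 751 and 767 CPM in the sgPrkci libraries, against 1054, 1069 and 972 CPM in the sgPrkcz libraries. For both subunits the 3 sgPrkci libraries lay close together and below all 3 sgPrkcz libraries. Together the members took 0.253% to 0.256% of the reads in sgPrkci libraries and 0.320% to 0.346% in sgPrkcz libraries, and the mean sum in sgPrkci was 76.0% of that in sgPrkcz. The ratio of the large to the small subunit sum was 2.27, 2.40 and 2.29 in sgPrkci libraries and 2.21, 2.24 and 2.29 in sgPrkcz libraries, so the ranges of this ratio overlapped. In structures of the mammalian ribosome, the products of Mrps18a and Mrps30 sit in the large subunit and that of Mrps36 is not a ribosomal protein. Grouped in that way, 25 of 49 large and 12 of 24 small subunit members were lower.

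**Figure D2:**
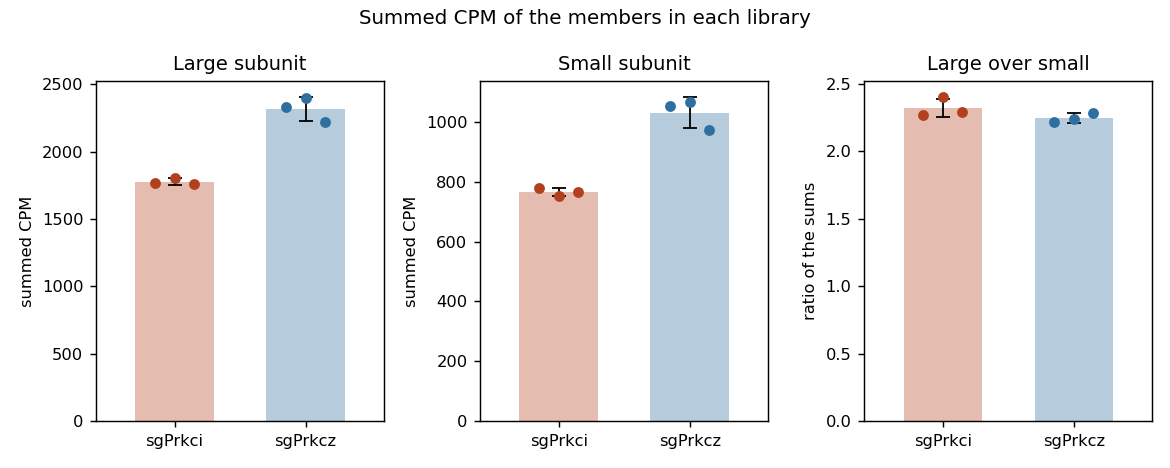
Summed CPM of the large subunit members and of the small subunit members, and the ratio of these sums, in each of the 3 sgPrkci (orange) and 3 sgPrkcz (blue) libraries. Bars are means, whiskers are 1 SD over 3 libraries and points are single libraries. Both sums are lower in every sgPrkci library (at most 1805 against at least 2224 CPM for the large, and at most 780.4 against at least 972 CPM for the small subunit), while the ratios overlap between the groups.

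Mrpl12 (ENSMUSG00000039640, chr11:120484613-120489065, plus strand, GRCm38) encodes the stalk protein of the large subunit, which recruits translation factors and has also been described to bind the mitochondrial RNA polymerase. It measured 51.3, 52.3 and 47.2 CPM in the sgPrkci MTOs, against 114, 131 and 101 CPM in the sgPrkcz MTOs. Its sgPrkci libraries were all under 53 CPM and its sgPrkcz libraries all over 100 CPM. The log2 fold change of Mrpl12 was -1.17 ± 0.11 (SE, n = 3 each, limma adjusted p = 3.68e-08), with the smallest adjusted p of the members. The last 500 bases of the gene overlap Gm16755, a long noncoding RNA gene on the other strand that averaged 0 CPM in sgPrkci and 0.319 CPM in sgPrkcz libraries. Mrpl10 and Mrpl11 encode the other proteins of the stalk and its base. Mrpl10 averaged 24.5 ± 6.44 CPM in sgPrkci and 35.5 ± 3.30 CPM in sgPrkcz libraries (SD, n = 3 each) and was lower, with a log2 fold change of -0.54 and a limma adjusted p of 0.0168. The call of Mrpl10 was lost in 6 of 16 other fits, those with TMM scaling, quantile normalization, no intensity trend and DESeq2 and those without sgPrkci replicate 10 or sgPrkcz replicate 13. Mrpl11 spread widely within both groups, from 10.7 to 21.3 CPM in sgPrkci and from 12.9 to 23.8 CPM in sgPrkcz libraries, and was not called.

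The promoters of 4 members are shown because these genes stand at different places in the comparison, Mrpl12, Mrpl17 and Mrps26 among the 8 lowest members and Mrpl33 as the most abundant member, which was not lower. Each window runs from 200 bases before the annotated start to 30 bases from it, read in the direction of the gene from RefSeq on GRCm38.p6, and capitals mark a match to the motif of NRF1 (in Mrpl17) or to the ETS motif bound by GABPA (in Mrpl33 and Mrps26), on either strand.
Mrpl12 (chr11:120484437-120484666, plus strand): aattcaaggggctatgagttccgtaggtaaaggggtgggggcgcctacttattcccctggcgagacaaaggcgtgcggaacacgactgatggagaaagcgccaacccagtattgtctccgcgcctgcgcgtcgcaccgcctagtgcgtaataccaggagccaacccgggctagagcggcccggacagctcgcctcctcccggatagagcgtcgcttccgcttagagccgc
Mrpl17 (chr7:105811058-105811287, minus strand): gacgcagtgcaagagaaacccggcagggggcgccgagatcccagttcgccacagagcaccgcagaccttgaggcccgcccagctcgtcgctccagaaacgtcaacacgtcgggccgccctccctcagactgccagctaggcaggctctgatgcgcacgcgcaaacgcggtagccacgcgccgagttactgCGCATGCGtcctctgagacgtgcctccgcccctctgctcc
Mrps26 (chr2:130563557-130563786, plus strand): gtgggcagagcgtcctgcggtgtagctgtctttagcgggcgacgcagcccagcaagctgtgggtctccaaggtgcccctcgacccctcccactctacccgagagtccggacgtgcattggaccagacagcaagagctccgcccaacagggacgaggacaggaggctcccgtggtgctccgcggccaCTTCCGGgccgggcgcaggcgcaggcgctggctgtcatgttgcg
Mrpl33 (chr5:31613751-31613980, plus strand): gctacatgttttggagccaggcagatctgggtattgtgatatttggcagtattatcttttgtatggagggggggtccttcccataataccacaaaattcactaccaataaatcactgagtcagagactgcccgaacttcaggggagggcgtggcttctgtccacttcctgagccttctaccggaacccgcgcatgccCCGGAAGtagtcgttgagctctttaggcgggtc

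NRF1, the ETS factor GABPA and YY1 are textbook regulators of nuclear genes for mitochondrial proteins. RefSeq promoter windows of 250 bases before to 50 bases after the start were found for 69 members and searched on both strands, with any overlap allowed, for CGCATGCG (NRF1), CCGGAAG (ETS), AAGATGGC (YY1), the MYC E-box CACGTG and, as a core promoter element, the TATA motif TATAAA. The ETS motif was in the windows of 26 members (37.7%), beside 9.93% of all 27025 genes in the promoter table and 23.2% of the 7481 tested genes found there. The YY1 motif was in 12 members (17.4%, beside 3.19% of all and 6.00% of tested genes), and the NRF1 motif in 7 (10.1%, beside 2.07% and 4.72%). The E-box and the TATA motif were in 5 members each (7.25%), beside 12.5% and 8.13% of tested genes. A total of 26 members held none of the motifs, Mrpl12 and Mrpl40 among them. The ETS motif was in 10 of 31 lower members (32.3%) and 14 of 33 uncalled members (42.4%), the NRF1 motif in 3 of 31 and 3 of 33, and the YY1 motif in 5 of 31 and 6 of 33. The E-box and the TATA motif were each in 3 of 31 lower and 2 of 33 uncalled members, and none of these differences was tested. These matches describe letters in a window and not binding.

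Of the 9 tested members whose proteins build the central protuberance, the part of the large subunit that touches the small subunit and holds a structural RNA, 5 were lower (55.6%), beside 26.5% of all genes tested. The median log2 fold change of the 9 was -0.53. Mrpl40 (ENSMUSG00000022706, chr16:18872018-18876862, minus strand), a protein found only in mitochondrial ribosomes, had the lowest log2 fold change of the members. It measured 20.0, 25.7 and 14.2 CPM in the sgPrkci MTOs, against 46.7, 47.7 and 43.9 CPM in the sgPrkcz MTOs. The sgPrkci libraries of Mrpl40 differed among themselves by a larger factor than the sgPrkcz libraries, and the groups were far apart, with a log2 fold change of -1.20 ± 0.18 (SE, n = 3 each, limma adjusted p = 1.16e-05). Mrpl46 (ENSMUSG00000030612, chr7:78775236-78783531, minus strand), another mitochondria-specific protein of this site, measured 14.7, 12.1 and 12.8 CPM in the sgPrkci MTOs, against 26.0, 20.1 and 24.0 CPM in the sgPrkcz MTOs. Its highest sgPrkci library stayed under its lowest sgPrkcz library, and the log2 fold change was -0.77 ± 0.19 (SE, n = 3 each, limma adjusted p = 0.00241). Mrpl58 (ENSMUSG00000018858, chr11:115403752-115412674, plus strand) encodes a peptidyl-tRNA hydrolase that is built into the ribosome and can release stalled chains. It measured 25.3, 22.0 and 23.4 CPM in the sgPrkci MTOs, against 42.6, 33.3 and 37.4 CPM in the sgPrkcz MTOs. The groups of Mrpl58 did not overlap and its log2 fold change was -0.65 ± 0.16 (SE, n = 3 each, limma adjusted p = 0.00174). Mrpl38 and Mrpl55 were also lower (log2 fold changes -0.72 and -0.53).

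The other proteins of this site, Mrpl48, Mrpl27, Mrpl18 and Mrpl52, were not called. Mrpl18 (ENSMUSG00000057388, chr17:12911349-12916345, minus strand), whose bacterial relative binds 5S ribosomal RNA, had the second highest mean of the large subunit members in both groups, after Mrpl33, with 105, 106 and 111 CPM in the sgPrkci MTOs, against 121, 150.0 and 109 CPM in the sgPrkcz MTOs. The lowest sgPrkcz library of Mrpl18 lay inside the range of the sgPrkci libraries, and its log2 fold change was -0.23 ± 0.11 (SE, n = 3 each, limma adjusted p = 0.0943). Without sgPrkcz replicate 15, Mrpl18 was called lower with a limma adjusted p of 0.0239, and its adjusted p ranged from 0.0239 to 0.564 over the alternatives. Mrpl27 spread widely within both groups, with 27.9, 43.9 and 23.1 CPM in the sgPrkci MTOs, against 43.4, 23.2 and 60.9 CPM in the sgPrkcz MTOs.

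At the exit of the tunnel through which the new protein leaves the ribosome, 3 of 5 tested members were lower (60%), beside 26.5% of all genes tested. Mrpl45 (ENSMUSG00000018882, chr11:97315716-97329920, plus strand) encodes the protein that ties the ribosome to the inner membrane, where the products are inserted. It measured 47.1, 39.7 and 39.4 CPM in the sgPrkci MTOs, against 79.0, 75.3 and 70.2 CPM in the sgPrkcz MTOs. No library of 1 group reached the other, and the log2 fold change of Mrpl45 was -0.82 ± 0.12 (SE, n = 3 each, limma adjusted p = 1.24e-05). Mrpl17 (ENSMUSG00000030879, chr7:105803206-105811099, minus strand), a relative of bacterial L17, measured 44.9, 47.2 and 38.4 CPM in the sgPrkci MTOs, against 74.9, 77.2 and 87.2 CPM in the sgPrkcz MTOs. All 3 sgPrkci libraries of Mrpl17 stayed under 50 CPM and all sgPrkcz libraries above 74 CPM, for a log2 fold change of -0.86 ± 0.12 (SE, n = 3 each, limma adjusted p = 6.64e-06). Mrpl47 was lower as well, with a log2 fold change of -0.60. The end of Mrpl47 overlaps Actl6a on the other strand, which averaged 71.3 CPM in sgPrkci and 103 CPM in sgPrkcz libraries, and without stated strand use the reads of such a pair cannot be told apart. Mrpl24 and Mrpl22 were not called, with log2 fold changes of -0.13 and -0.07.

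The other large subunit members that were lower were Mrpl16, Mrpl37, Mrpl4, Mrpl13, Mrpl9, Mrpl2, Mrpl1, Mrpl54, Mrpl19, Mrpl15, Mrpl57, Mrpl21, Mrpl20 and Mrpl3. They include Mrpl16 and Mrpl2, whose bacterial relatives lie near the centre where peptide bonds form. The log2 fold changes ran from -0.74 for Mrpl16 to -0.35 for Mrpl3. Mrpl3 (ENSMUSG00000032563, chr9:105053239-105079888, plus strand), a core protein of the large subunit, measured 70.5, 63.5 and 56.1 CPM in the sgPrkci MTOs, against 82.7, 79.7 and 79.6 CPM in the sgPrkcz MTOs. The groups of Mrpl3 did not overlap, and its log2 fold change was -0.35 ± 0.11 (SE, n = 3 each, limma adjusted p = 0.0167). Mrpl20 (ENSMUSG00000029066, chr4:155802878-155809975, plus strand), whose bacterial relative joins early in assembly, measured 52.4, 36.4 and 43.3 CPM in the sgPrkci MTOs, against 63.4, 56.5 and 55.0 CPM in the sgPrkcz MTOs. The highest sgPrkci library of Mrpl20 lay just under its lowest sgPrkcz library, and its log2 fold change was -0.41 ± 0.14 (SE, n = 3 each, limma adjusted p = 0.0208). Mrpl21 (ENSMUSG00000024829, chr19:3282901-3292837, plus strand) measured 38.5, 42.0 and 35.5 CPM in the sgPrkci MTOs, against 49.7, 57.1 and 54.4 CPM in the sgPrkcz MTOs. Its libraries separated by group, with a log2 fold change of -0.47 ± 0.13 (SE, n = 3 each, limma adjusted p = 0.00634).

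The calls of Mrpl3 and Mrpl20 depended on the processing and on single libraries. Mrpl3 was called in 10 of the 16 other fits and Mrpl20 in 7, and both calls were lost with TMM scaling, quantile normalization, no intensity trend, edgeR and DESeq2, that of Mrpl20 also without the rRNA-like genes. Without sgPrkci replicate 12, Mrpl3 had an adjusted p of 0.0991 (range 0.0135 to 0.254 over the alternatives). Mrpl20 had a limma adjusted p of 0.131 and 0.0523 when sgPrkci replicate 11 or 12 was left out and of 0.0823 when sgPrkcz replicate 13 was left out (range 0.00873 to 0.239). Mrpl21 kept its call without any single library and had an adjusted p of 0.132 with DESeq2 (range 0.00483 to 0.132).

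**Figure D3:**
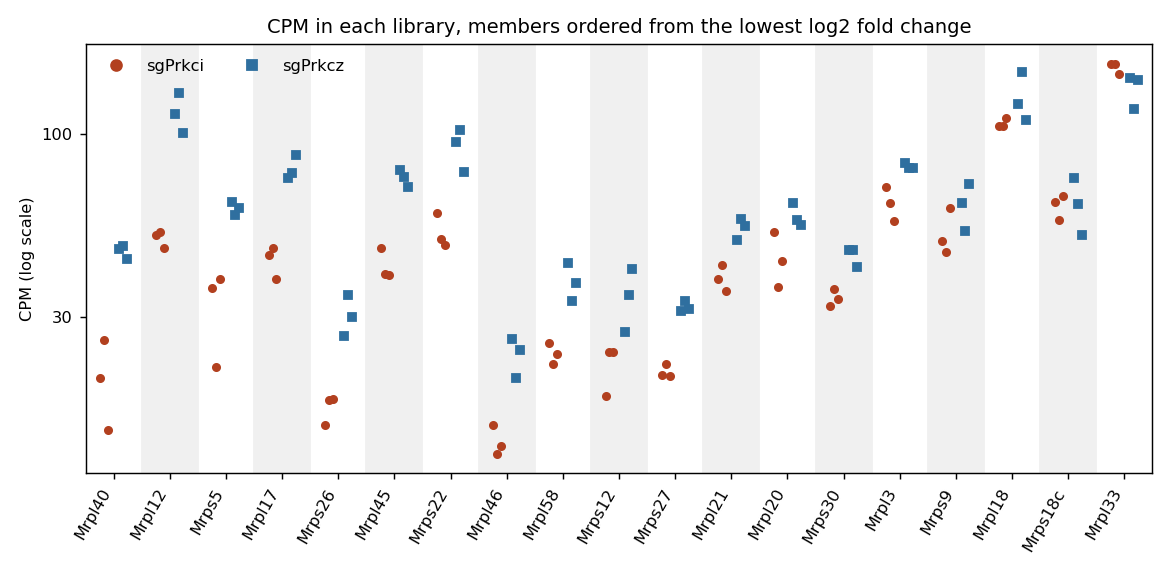
CPM (log scale) of 19 members in each of the 3 sgPrkci libraries (orange circles) and 3 sgPrkcz libraries (blue squares), ordered from the lowest log2 fold change (Mrpl40, -1.20) to the highest (Mrpl33, 0.21). From Mrpl40 to Mrpl3 the groups do not overlap and all sgPrkci libraries are lower, in Mrps9, Mrpl18 and Mrps18c they overlap, and in Mrpl33 all sgPrkci libraries are higher.

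In the small subunit, Mrps5 (ENSMUSG00000027374, chr2:127587222-127606829, plus strand), a relative of the bacterial protein at the entry of the mRNA channel, had the lowest log2 fold change. It measured 36.2, 21.5 and 38.4 CPM in the sgPrkci MTOs, against 63.8, 58.4 and 61.4 CPM in the sgPrkcz MTOs. The sgPrkcz libraries of Mrps5 lay within 6 CPM of each other, and the sgPrkci libraries were lower and more spread, for a log2 fold change of -0.96 ± 0.17 (SE, n = 3 each, limma adjusted p = 8.53e-05). Mrps26 (ENSMUSG00000037740, chr2:130563742-130568695, plus strand), a mitochondria-specific protein, measured 14.7, 17.3 and 17.4 CPM in the sgPrkci MTOs, against 26.3, 34.5 and 29.8 CPM in the sgPrkcz MTOs. None of the sgPrkci libraries reached 18 CPM and none of the sgPrkcz libraries was under 26 CPM, for a log2 fold change of -0.83 ± 0.18 (SE, n = 3 each, limma adjusted p = 0.000584). Mrps22 (ENSMUSG00000032459, chr9:98588730-98601660, minus strand), also mitochondria-specific, had the highest mean of the small subunit members over all 6 libraries but not over the sgPrkci libraries alone. It measured 59.2, 50.0 and 47.9 CPM in the sgPrkci MTOs, against 94.6, 102 and 77.8 CPM in the sgPrkcz MTOs. The groups of Mrps22 were well apart, and its log2 fold change was -0.79 ± 0.12 (SE, n = 3 each, limma adjusted p = 2.25e-05).

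Mrps27 (ENSMUSG00000041632, chr13:99344786-99415562, plus strand) encodes an RNA-binding protein of the pentatricopeptide repeat family. It measured 20.4, 22.0 and 20.2 CPM in the sgPrkci MTOs, against 31.2, 33.3 and 31.6 CPM in the sgPrkcz MTOs. The libraries within each group were close together, and the log2 fold change of Mrps27 was -0.60 ± 0.16 (SE, n = 3 each, limma adjusted p = 0.00428). Mrps12 (ENSMUSG00000045948, chr7:28739641-28741820, minus strand) encodes a protein of the decoding centre, where codon and anticodon are matched. It measured 17.7, 23.8 and 23.8 CPM in the sgPrkci MTOs, against 27.1, 34.5 and 41.0 CPM in the sgPrkcz MTOs. The highest sgPrkci library of Mrps12 lay a little under its lowest sgPrkcz library, and its log2 fold change was -0.62 ± 0.18 (SE, n = 3 each, limma adjusted p = 0.00788). The call of Mrps12 was lost with DESeq2, without sgPrkci replicate 10 (limma adjusted p = 0.0611) and without sgPrkcz replicate 15 (limma adjusted p = 0.0541), with a range of 0.00227 to 0.0928 over the alternatives.

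Mrps30 (ENSMUSG00000021731, chr13:118378381-118387252, minus strand), named for the small subunit and found in the large subunit in structures, measured 32.1, 36.0 and 33.7 CPM in the sgPrkci MTOs, against 46.4, 46.4 and 41.5 CPM in the sgPrkcz MTOs. Its groups did not overlap, with a log2 fold change of -0.39 ± 0.14 (SE, n = 3 each, limma adjusted p = 0.0248). Mrps30 was called in 7 of the 16 other fits. The call was lost with TMM scaling, quantile normalization, edgeR and DESeq2 and without the rRNA-like genes. It was also lost when sgPrkci replicate 10 or 12 was left out (limma adjusted p = 0.0903 and 0.0600) and when sgPrkcz replicate 13 or 14 was left out (0.0711 and 0.0624), with a range of 0.0239 to 0.275 over the alternatives. The remaining small subunit members that were lower were Mrps23, Mrps2, Mrps24, Mrps25, Mrps31, Mrps15 and Mrps7, with log2 fold changes of -0.74 to -0.44. Mrps7, a protein of the head of the subunit, was the single called member whose groups overlapped, with 31.3, 27.6 and 25.6 CPM in the sgPrkci MTOs, against 46.7, 42.0 and 28.7 CPM in the sgPrkcz MTOs. Its limma adjusted p was 0.0440, and Mrps7 was called in only 5 of the 16 other fits, with the call lost under TMM scaling, quantile normalization, no intensity trend, edgeR and DESeq2, without the rRNA-like genes and without each single library except sgPrkcz replicate 15. Mrps25 and Mrps7 end over genes of the other strand, Nr2c2 (69.3 CPM in sgPrkci and 73.0 CPM in sgPrkcz on average) and Mif4gd (36.4 CPM in sgPrkci and 63.9 CPM in sgPrkcz).

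The 37 calls differed in how often they returned. Under 10 other settings and 6 fits that each left out 1 library, 20 members were called lower every time. These were Mrpl40, Mrpl12, Mrpl17, Mrpl45, Mrpl46, Mrpl16, Mrpl38, Mrpl4, Mrpl58, Mrpl13, Mrpl47, Mrpl1 and Mrpl15 of the large subunit and Mrps5, Mrps26, Mrps22, Mrps23, Mrps2, Mrps24 and Mrps25 of the small subunit. The call was lost in at least 1 fit for the other 17, and DESeq2 on the recovered reads did not call any of these 17. How many of all genes were called lower in every fit was not counted. DESeq2 called 27.4% of the members and 14.1% of all genes lower. Of the 16 other fits, Mrps31 was called in 13, Mrpl37 in 14, Mrpl55 in 11, Mrpl19 in 8 and Mrpl57 in 7, and each of these 5 lost its call in at least 1 fit without a single library.

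Of the 36 members that were not called, 28 had a log2 fold change below 0. In 9 of them every sgPrkci library was below every sgPrkcz library, namely Mrpl48, Mrpl39, Mrpl28, Mrpl34, Mrpl36, Mrpl35, Mrpl49, Mrpl42 and Mrps18a. This order held for 31.8% of all genes tested, called or not, and its share among uncalled genes was not counted. The other large subunit members below 0 were Mrpl27, Mrpl18, Mrpl44, Mrpl11, Mrpl32, Mrpl43, Mrpl51, Mrpl50, Mrpl24, Mrpl52 and Mrpl22. The other small subunit members below 0 were Mrps28, Mrps33, Mrps9, Mrps16, Mrps6, Mrps34, Mrps35 and Mrps18c. At an unadjusted p under 0.05 there were 7 of these 28.

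Mrps9 and Mrps18c had, with Mrps22, the 3 highest means of the small subunit members over all 6 libraries, and in both the groups overlapped. Over the sgPrkci libraries alone, Mrps18c (62.2 CPM) and Mrps14 (59.2 CPM) had the highest means. Mrps9 (ENSMUSG00000060679, chr1:42851233-42905683, plus strand), whose bacterial relative reaches towards the transfer RNA in the P site, measured 49.4, 45.8 and 61.4 CPM in the sgPrkci MTOs, against 63.4, 52.7 and 72.0 CPM in the sgPrkcz MTOs. The log2 fold change of Mrps9 was -0.26 ± 0.14 (SE, n = 3 each, limma adjusted p = 0.137). Without sgPrkcz replicate 14, Mrps9 was called lower with an adjusted p of 0.0426 (range 0.0426 to 0.608 over the alternatives). Mrps18c (ENSMUSG00000016833, chr5:100798627-100804471, plus strand), 1 of 3 mammalian relatives of bacterial S18, measured 63.7, 56.5 and 66.4 CPM in the sgPrkci MTOs, against 74.9, 62.8 and 51.5 CPM in the sgPrkcz MTOs. Its sgPrkci libraries lay inside the wider range of the sgPrkcz libraries, with a log2 fold change of -0.01 ± 0.13 (SE, n = 3 each, limma adjusted p = 0.978) and values between -0.14 and 0.12 over the alternatives, with a flipped sign under TMM scaling, quantile normalization, edgeR and DESeq2, without the rRNA-like genes, and without sgPrkci replicate 11 or sgPrkcz replicate 13.

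The 8 members above 0 were Mrpl14, Mrps21, Mrps10, Mrpl33, Mrps14, Mrpl41, Mrps17 and Mrpl30. Mrpl33 (ENSMUSG00000106918, chr5:31596935-31664384, plus strand), whose bacterial relative lies near the exit site of the transfer RNA, had the highest mean of the members in both groups. It measured 159, 159 and 148 CPM in the sgPrkci MTOs, against 144, 117 and 142 CPM in the sgPrkcz MTOs. Here the sgPrkci libraries were all above the sgPrkcz libraries, the opposite order to that of Mrpl12. The log2 fold change of Mrpl33 was 0.21 ± 0.10 (SE, n = 3 each, limma adjusted p = 0.0839). Mrpl33 was called higher in 5 of the 16 other fits, those with TMM scaling, quantile normalization, without the rRNA-like genes, edgeR and DESeq2 (adjusted p from 0.00726 to 0.362 over all 16). Its end overlaps Rbks on the other strand, which averaged 4.71 CPM in sgPrkci and 4.80 CPM in sgPrkcz libraries. The RefSeq start used for the promoter window of Mrpl33 lies inside the gene span given here, so the annotations differ in the start of this gene. Mrpl14, a protein at the face towards the small subunit, measured 51.3, 55.6 and 61.8 CPM in the sgPrkci MTOs, against 51.2, 49.6 and 36.9 CPM in the sgPrkcz MTOs. Its groups touched at 51.3 against 51.2 CPM without crossing, and it was called higher in 4 of the 16 other fits.

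Of the 77 listed members, 4 did not reach 5 CPM in 3 libraries. Mrps11 measured 1.13, 1.87 and 2.49 CPM in the sgPrkci MTOs, against 4.82, 5.65 and 4.68 CPM in the sgPrkcz MTOs, so its sgPrkci libraries were all lower. Only the fits without a filter and without the rRNA-like genes tested Mrps11, and both called it lower. Without the rRNA-like genes it passed the filter only through its sgPrkcz libraries, so that call adds no support. The gene starts head to head with Mrpl46 on chromosome 7. Mrpl23 measured 0.754, 0.934 and 0.710 CPM in the sgPrkci MTOs, against 0, 0 and 0 CPM in the sgPrkcz MTOs, which is 2 reads in each sgPrkci library, and Mrps18b and Mrps36 stayed between 0 and 2.34 CPM. Processed pseudogenes named after members reached at most 1.42 CPM in any library.

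Members were also grouped by the origin of the protein. The counts in these groups stand beside 26.5% of all genes tested and 50.7% of all members called lower. Of 44 tested members with a bacterial relative 22 were lower (median log2 fold change -0.36), and of 28 mitochondria-specific members 15 were lower (median -0.44). Within the small subunit, 7 of 10 mitochondria-specific members were lower (median -0.63), namely Mrps22, Mrps23, Mrps25, Mrps26, Mrps27, Mrps30 and Mrps31. Of the small subunit members with a bacterial relative 6 of 15 were lower (median -0.26). Within the large subunit the order of the shares was the other way, with 8 of 18 mitochondria-specific members (median -0.42) and 16 of 29 members with a bacterial relative (median -0.41). These groups are small and the difference between them was not tested. Split into 3 groups by mean CPM, from the least to the most abundant members, 11 of 24, 14 of 24 and 12 of 25 were lower. Of the 10 tested members whose last 500 bases overlap another listed gene, 5 were lower, and of the other 63 members 32 were lower.

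The ribosomal RNAs did not follow the transcripts of the ribosomal proteins. For 12S, mt-Rnr1 measured 32193, 33303 and 33783 CPM in the sgPrkci libraries, against 29282, 29814 and 31512 CPM in the sgPrkcz libraries. For 16S, mt-Rnr2 measured 77480.0, 80356 and 82145 CPM in the sgPrkci libraries, against 65677, 73274 and 74114 CPM in the sgPrkcz libraries. Both were higher in every sgPrkci library than in any sgPrkcz library, though a library primed on poly(A) samples these RNAs by their short tails or internal A runs. Together with Gm42418, a gene over a ribosomal RNA repeat, they took 21.2% to 24.0% of the reads in sgPrkci and 17.6% to 19.4% in sgPrkcz libraries, which lowers the CPM of all other genes. With these 3 genes left out of the scaling, the members summed to 3240 to 3321 CPM in sgPrkci and 3965 to 4212 CPM in sgPrkcz libraries. In that fit 35 of 74 tested members were lower (47.3%) and 2 higher. The 35 include Mrps11, which passed the filter there only through its sgPrkcz libraries. Of the 37 members called lower in the first fit, 34 were called lower again. Of all 9971 genes tested there, 2147 were lower (21.5%) and 1772 higher.

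Other genes of mitochondrial translation were described in the same fit, from lists chosen by function. Of 5 ribosomal proteins with other symbols 3 were lower (60%, beside 26.5% of all genes tested), with a median log2 fold change of -0.44. Gadd45gip1, a large subunit protein near the tunnel exit, measured 29.8, 33.6 and 31.3 CPM in the sgPrkci MTOs, against 56.4, 63.4 and 53.8 CPM in the sgPrkcz MTOs (log2 fold change -0.85, limma adjusted p = 2.08e-05). Chchd1 and Aurkaip1 of the small subunit had log2 fold changes of -0.55 and -0.44. Of 21 genes for assembly of the ribosome and modification of its RNA 10 were lower (47.6%), with a median of -0.48. Noa1, a GTPase that assembles the small subunit, measured 10.9, 11.7 and 10.3 CPM in the sgPrkci MTOs, against 27.4, 25.7 and 24.0 CPM in the sgPrkcz MTOs. Every sgPrkci library of Noa1 stayed under 12 CPM and every sgPrkcz library was above 23 CPM, with a log2 fold change of -1.16 ± 0.19 (SE, n = 3 each, limma adjusted p = 3.46e-05). Trub2, a pseudouridine synthase, and Ngrn, a factor needed for 16S ribosomal RNA, had log2 fold changes of -1.15 and -0.65.

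Of 12 translation factors and mRNA partners 5 were lower (41.7%, beside 26.5% of all genes tested), with a median log2 fold change of -0.39. Lrpprc, which stabilizes mitochondrial mRNAs, measured 44.9, 49.5 and 34.1 CPM in the sgPrkci MTOs, against 80.5, 103 and 95.4 CPM in the sgPrkcz MTOs. All sgPrkcz libraries of Lrpprc were above 80 CPM and no sgPrkci library reached 50 CPM, for a log2 fold change of -1.11 ± 0.14 (SE, n = 3 each, limma adjusted p = 1.01e-06). The initiation factor gene Mtif2 had a log2 fold change of -0.84 and the elongation factor gene Tsfm one of -0.73. Of 13 mitochondrial aminoacyl-tRNA synthetase genes, whose products charge transfer RNAs, 4 were lower (median -0.32), of which Yars2, Hars2 and Tars2 had the smallest adjusted p, with log2 fold changes of -0.81, -0.72 and -0.92. That share, 30.8%, is near the 26.5% of all genes. Of 4 genes for expression and upkeep of mitochondrial DNA 1 was lower (25%, near the 26.5% of all genes), Ssbp1, a single-strand binding protein (log2 fold change -0.79). Polrmt and Tfam had log2 fold changes of -0.68 and -0.25 without a call.

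Transcripts of the respiratory chain, from mitochondrial DNA and from nuclear genes, had medians near 0, and the proteins themselves were not measured. Of 74 nuclear genes of the respiratory chain 20 were lower (27.0%) and 13 higher (17.6%), near the 26.5% and 14.4% of all genes, with a median of -0.03. By smallest adjusted p, Atp5g1 and Ndufa5 were lower (log2 fold changes -1.28 and -0.93) and Uqcrh was higher (0.57). Of the 7 tested respiratory chain genes of mitochondrial DNA 2 were lower (28.6%, also near that of all genes), mt-Nd4 (-0.46) and mt-Nd2 (-0.30), and the median was 0.00. The genes of the cytosolic ribosome were lower for 37 of 80 (46.25%) and higher for 7 (8.75%), with a median of -0.19. That share of lower genes is above the 26.5% of all genes and near the 50.7% of the members, whose median was -0.42. Those with the smallest adjusted p were Rps27a, Rpl26 and Rpl23, with log2 fold changes of -1.04, -0.67 and -0.64. Differences between these lists were not tested.

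**Figure D4:**
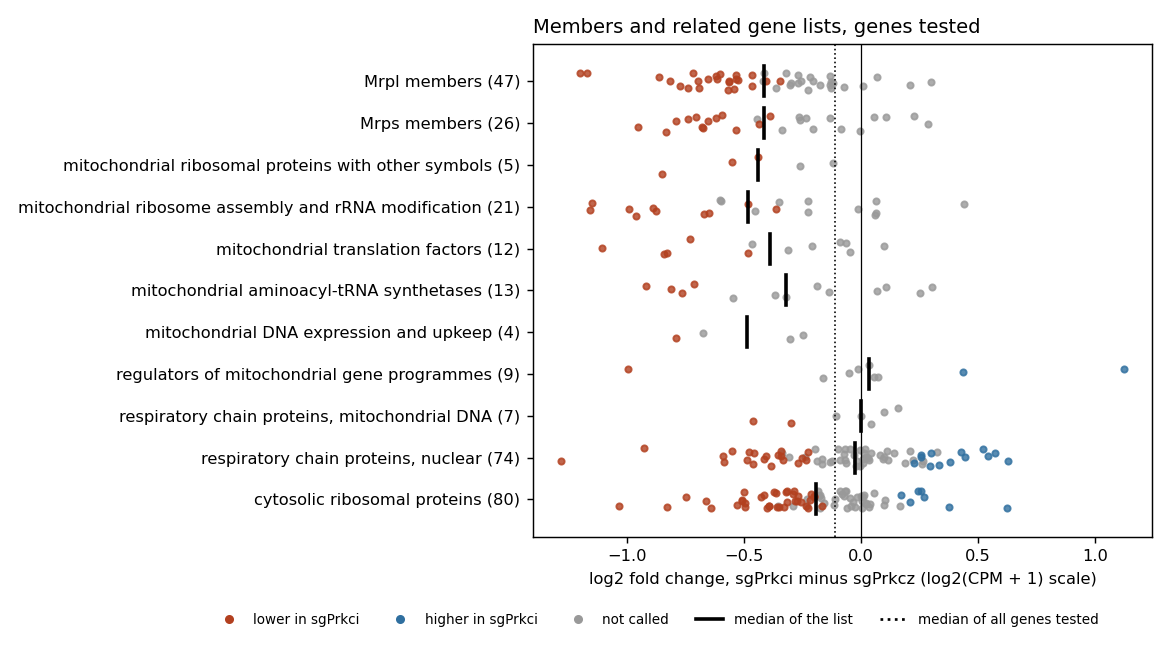
Log2 fold change (sgPrkci minus sgPrkcz, on the log2(CPM + 1) scale) of the tested Mrpl and Mrps members and of 9 related gene lists, with the number tested in brackets. Points are genes, coloured as lower (orange), higher (blue) or not called (grey), heavy bars are list medians and the dotted line is the median of all genes, -0.11. The medians of the mitochondrial ribosomal proteins and of the assembly list lie between -0.48 and -0.41. The median of the cytosolic ribosomal proteins lies at -0.19, and those of the respiratory chain lists lie at -0.03 and 0.00.

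Of 9 regulators of mitochondrial gene programmes 1 was lower (11.1%) and 2 were higher (22.2%), beside 26.5% and 14.4% of all genes tested. Ppargc1a, the coactivator PGC-1α, measured 40.7, 30.8 and 41.9 CPM in the sgPrkci MTOs, against 18.5, 15.7 and 15.8 CPM in the sgPrkcz MTOs. Each sgPrkci library of Ppargc1a had more than 30 CPM and each sgPrkcz library under 19 CPM, for a log2 fold change of 1.13 ± 0.17 (SE, n = 3 each, limma adjusted p = 1.65e-05). Its relative Pprc1, a growth-responsive coactivator, moved the other way and measured 5.66, 6.07 and 6.39 CPM in the sgPrkci MTOs, against 14.8, 16.9 and 8.78 CPM in the sgPrkcz MTOs (limma adjusted p = 0.00354). Esrra, the nuclear receptor ERRα, was higher (0.44). The genes of the factors whose motifs were searched, Nrf1, Gabpa, Yy1 and Myc, were not called, with log2 fold changes of -0.01, 0.04, 0.06 and -0.05.

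Measures of the libraries that moved with the groups are given beside these results. The summed epithelial markers were lower in every sgPrkci library, with Epcam higher (700.0 to 823 CPM in sgPrkci, against 519.6 to 586 CPM in sgPrkcz) and Cdh1, Krt18, Krt19 and Cldn7 lower in every sgPrkci library. The other cell types' markers stayed at or near 0, and Col3a1 was at 0 in every library. The part of the epithelial markers in the member results was not tested. Scaling by TMM factors moved the median of all genes to 0.00 and split the calls over all genes into 1890 lower and 1981 higher, beside 2534 and 1377 without it. With TMM, 29 members were lower and 2 higher, and the median of the members lay 0.31 below that of all genes, the same distance as without TMM.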

How the data were processed

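RNA of 6 MTO samples was made into QuantSeq 3' libraries and sequenced single-end, and per the labels the genome build was GRCm38. The deposited CPM values were made by the authors, who scaled the reads of each library to 1000000 over the listed genes. The aligner, counter, annotation, use of strand and handling of molecular identifiers were not stated, and a QuantSeq pipeline is listed among the study's software without a link to these libraries. Symbols for 20675 identifiers and coordinates came from GENCODE M21. All values above 0 (100%) were whole multiples of 1 read within 0.01, so reads were recovered, and on these edgeR 4.0.16 with TMM called 1930 genes lower and 2011 higher. A few CPM therefore rest on few reads.

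limma 3.58.1 (R 4.3.3, intensity trend, pseudocount 1) compared 3 sgPrkci with 3 sgPrkcz libraries, as differences of log2(CPM + 1), a scale that understates changes of low genes. Errors are SD of CPM and SE of log2 fold changes. The code was tested on simulated data. Alternatives were pseudocounts of 0.1 and 10, no filter or 10 CPM, TMM, quantile normalization, no rRNA-like genes, no trend, edgeR, DESeq2 1.42.0, leaving out each library and, chosen after seeing the data, leaving out members with overlapped ends and counting members below the median of all genes. Members and gene lists were chosen with earlier results of these data known.

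All members are named. Values per library are given for the 8 lowest and 4 highest among called members without overlap, the 3 of each subunit with the highest mean over all libraries and Mrpl12, Mrpl45, Mrpl58, Mrps12, Mrps27 and Mrps5 for their roles, with up to 3 genes by smallest adjusted p from each other list. Mrpl10, Mrpl11, Mrpl27, Mrpl14, Mrps7, Mrps11, Mrpl23 and the 4 factors of the searched motifs were described in addition after their values were seen.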

Additional observations from a re-analysis of the deposited data

How the results depend on the processing

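The direction held in each alternative for the members as a whole and for both subunits, and the counts moved. The median log2 fold change of the members was -0.31 with a pseudocount of 10, -0.31 with TMM scaling, -0.29 with quantile normalization, -0.31 with edgeR and -0.32 with DESeq2, with the same medians to 2 decimals for the large subunit. For the small subunit it was -0.31, -0.30, -0.29, -0.32 and -0.32 in that order of settings and -0.37 without the rRNA-like genes, where Mrps11 was tested as well. DESeq2 called 20 members lower, 13 of the large and 7 of the small subunit, beside 37, 24 and 13 with limma. Of all genes tested, DESeq2 called 14.1% lower and limma 26.5%. Members called higher numbered 2 with TMM scaling, 2 with quantile normalization, 2 without the rRNA-like genes, 2 with edgeR, 1 with DESeq2 and 1 without a filter, which is Mrpl23 with 2 reads in each sgPrkci library. Over all genes, 1981, 1854, 1772, 2011, 1450 and 1500 were called higher in that order of settings. Leaving out 1 library gave 29 to 39 members lower (39.7% to 53.4%), 0 higher in every such fit, and small subunit medians of -0.49 to -0.35. In the same fits 22.1% to 24.5% of all genes tested were lower, and 968 to 1380 genes were higher. With TMM, quantile normalization, edgeR and DESeq2 the median of all genes lay near 0 by construction of the scaling, and the members stayed 0.28 to 0.32 below it. The cause of the other shifts was not tested. Without the 10 members whose ends overlap another listed gene, 32 of 63 were lower (50.8%), beside 26.5% of all genes tested. With 3 libraries a group, Mrps28 (19, 40 and 14 reads in sgPrkci and 40, 10 and 27 in sgPrkcz libraries) and Mrps21 (18, 18 and 19 reads in sgPrkci and 25, 13 and 4 in sgPrkcz libraries) overlapped between the groups, and whether depth or spread limits them was not tested. The groups share no replicate numbers. No paired analysis was possible because the labels number the sgPrkci and sgPrkcz libraries separately.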
